A study of Mus musculus with 6 samples.

Results

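The transcripts of 9 genes that phagocytes use to make superoxide, nitric oxide and itaconate, and to live with these products, were compared between lungs of TNF transgenic and wildtype mice. They are the oxidase genes Cybb, Cyba, Ncf1, Ncf4 and Rac2, the nitric oxide synthase gene Nos2, the itaconate gene Acod1, the superoxide dismutase gene Sod2 and the metal transporter gene Slc11a1. They were chosen by gene symbol, with earlier results of these data known. All 9 are rows of the deposited count table of 49568 rows, and all were among the 19199 genes with enough counts to be tested. Whole lungs came from 3 mice of the genotype TNF-Tg, which overexpress a human TNF transgene, and from 3 WT littermates without it. All 6 were 4-month-old females on a C57BL/6 background, and each gave 1 library of poly(A) RNA. The promoter that drives the transgene is not given in the sources used here, and the transgene itself is not a row that was analysed.

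The total counts lay between 25396923 and 30049463 in TNF-Tg lungs and between 31400978 and 32529408 in WT lungs. Values per lung are given as normalized counts, in which each lung's counts are rescaled to a common TMM-adjusted library size. The lung genes Sftpc, Scgb1a1 and Ager were abundant in every lung. A pair of libraries stood apart. In TNF-Tg replicate 1, 5.22% of all counts lay on the gene Gm42418, against at most 0.274% in the other lungs. WT replicate 1 held 56570 counts of the squamous keratin Krt4, against at most 8 elsewhere. The mouse Tnf gene had 106, 213 and 405 counts in TNF-Tg lungs and 16, 14 and 35 in WT lungs.

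The phagocyte NADPH oxidase is a membrane-bound enzyme that passes electrons from NADPH to oxygen and so makes superoxide at the cell surface or inside the phagosome. Its catalytic chain and a small partner chain sit in the membrane, while cytosolic subunits and a Rac GTPase join them when the cell is activated. Inducible nitric oxide synthase makes nitric oxide from arginine, and the enzyme encoded by Acod1 makes itaconate from a citric acid cycle intermediate. In the lung these genes are best known from macrophages, monocytes and neutrophils, although some of them, such as Nos2 and Sod2, are also expressed in epithelial and other cells. People who lack a working oxidase subunit have chronic granulomatous disease.

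All 9 genes were higher in TNF-Tg lungs, and for each of them every TNF-Tg lung lay above every WT lung. The rise differed widely between members, from 2.20-fold for Rac2 to 21.6-fold for Slc11a1 and 178-fold for Acod1, as ratios of group means. All 9 were called higher by the quasi-likelihood F-test of edgeR, at a Benjamini-Hochberg adjusted p under 0.05 across the tested genes. Over all tested genes, 47.4% were called, 24.0% as higher and 23.4% as lower in TNF-Tg lungs. Groups did not overlap for 58.7% of the tested genes, and 30.5% had such groups with TNF-Tg on top. The median log2 fold change of the members was 2.62, beside 0.03 for all tested genes. The members had been chosen with earlier results of these data known. In whole tissue, more cells of a type and more RNA per cell cannot be told apart. Marker genes of macrophages rose in the same lungs, with 10 of 10 called higher and a summed level of 289817 to 319091 in TNF-Tg lungs and 89205 to 90667 in WT lungs, and their part in the result was not tested.

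**Figure D1:**
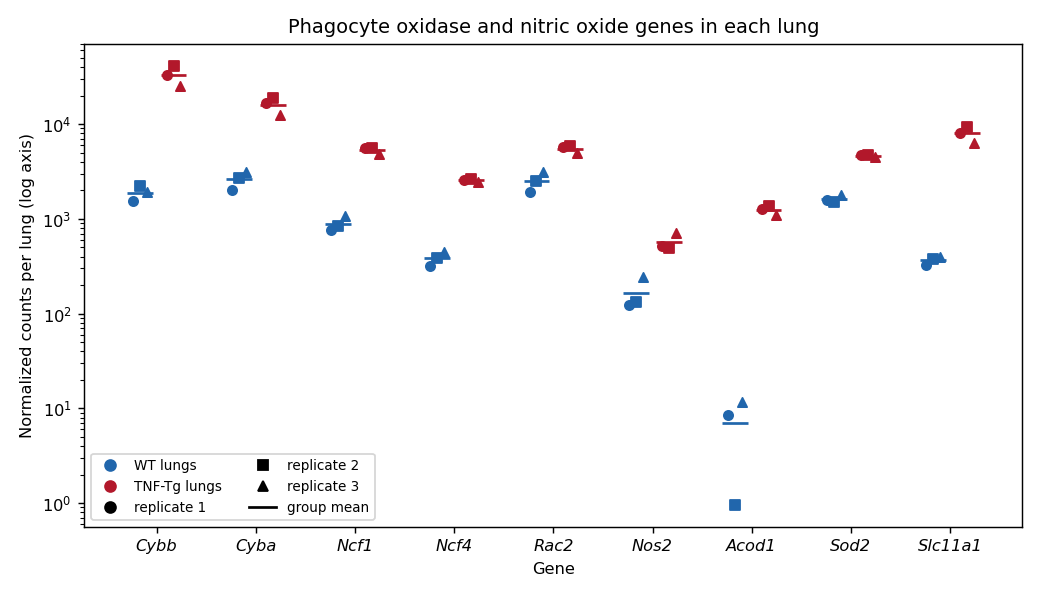
Normalized counts (log axis) of the 9 genes in each of the 3 WT lungs (blue) and 3 TNF-Tg lungs (red), with a bar at each group mean and a symbol for each replicate number. The groups do not overlap for any of the genes, and the widest gap is that of Acod1, between 11.6 in the highest WT lung and 1095 in the lowest TNF-Tg lung.

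Cybb encodes the catalytic, electron-carrying chain of the oxidase (ENSMUSG00000015340.10, chromosome X, 9435252 to 9487771, minus strand, mm10). It had 32906, 41161 and 25129.9 normalized counts in the 3 TNF-Tg lungs and 1542, 2207 and 1922 in the 3 WT lungs. The lowest TNF-Tg lung lay far above the highest WT lung, and replicate 2 was the highest lung of each genotype. The group means were 33065 ± 8017 and 1891 ± 334 (SD, n = 3 each; log2 fold change 4.13, standard error 0.23, 95% interval 3.59 to 4.66, adjusted p = 1e-05 from edgeR). Cyba encodes the small chain that stabilizes the catalytic one (ENSMUSG00000006519.11, chromosome 8, 122424776 to 122432930, minus strand). Cyba had 16838, 18786 and 12562 normalized counts in the 3 TNF-Tg lungs and 2004, 2678 and 3156 in the 3 WT lungs. Its groups were also apart, with means of 16062 ± 3184 and 2613 ± 579 (SD, n = 3 each; log2 fold change 2.62, standard error 0.21, 95% interval 2.13 to 3.11, adjusted p = 4.83e-05 from edgeR). In both genes TNF-Tg replicate 3 was the lowest of the TNF-Tg lungs. Leaving out any single lung gave log2 fold changes between 3.94 and 4.28 for Cybb and between 2.43 and 2.77 for Cyba.

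Both cytosolic subunits among the members rose, with ratios of group means of 5.98 for Ncf1 and 6.67 for Ncf4, beside 6.15 for Cyba and 17.5 for Cybb. Ncf1 encodes the organizer subunit, whose phosphorylation starts assembly (ENSMUSG00000015950.13, chromosome 5, 134220053 to 134229625, minus strand). Ncf1 had 5551, 5607 and 4828 normalized counts in the 3 TNF-Tg lungs and 759, 851 and 1063 in the 3 WT lungs, means of 5329 ± 435 and 891 ± 156 (SD, n = 3 each; log2 fold change 2.58, standard error 0.15, 95% interval 2.25 to 2.92, adjusted p = 1e-05 from edgeR). Ncf4 encodes a subunit that binds the phosphoinositide of phagosomes (ENSMUSG00000071715.12, chromosome 15, 78244801 to 78262580, plus strand). It had 2580.4, 2651 and 2475 normalized counts in the 3 TNF-Tg lungs and 316, 387 and 451 in the 3 WT lungs. The 3 TNF-Tg lungs were close to each other, with a coefficient of variation of 3.44%, against 17.6% in WT lungs (log2 fold change 2.74, standard error 0.14, 95% interval 2.42 to 3.05, adjusted p = 6.38e-06 from edgeR). An exon of Gtf2ird2 overlaps those of Ncf1 by 222 bases on the opposite strand, and the strand setting of the counting is not given in the sources used here. Gtf2ird2 itself had 302 to 412 counts per lung, below the lowest Ncf1 count of 794.

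Rac2, the Rac GTPase of blood cells that switches the assembled oxidase on, rose least (ENSMUSG00000033220.7, chromosome 15, 78559167 to 78572783, minus strand). It had 5753, 5884 and 4944 normalized counts in the 3 TNF-Tg lungs and 1914, 2505 and 3111 in the 3 WT lungs. WT replicate 3 was the highest WT lung, as it was for Cyba, Ncf1, Ncf4, Nos2, Acod1, Sod2 and Slc11a1. The means were 5527 ± 509 and 2510.1 ± 599 (SD, n = 3 each; log2 fold change 1.14, standard error 0.17, 95% interval 0.74 to 1.54, adjusted p = 0.00117 from edgeR). Leaving out a lung moved the log2 fold change to between 0.95 and 1.32, and the largest adjusted p over the 13 alternative settings was 0.0076 by edgeR, without WT replicate 2.

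The balance between members was compared within each lung, as the difference of 2 genes on the log2 CPM scale (CPM, counts scaled to a fixed library total). Such a difference follows the change of a ratio and does not compare molecule numbers, since the genes differ in length. Cybb minus Cyba was 0.97, 1.13 and 1.00 in the TNF-Tg lungs and -0.38, -0.28 and -0.72 in the WT lungs, so that the ratio of Cybb to Cyba was higher in every TNF-Tg lung than in any WT lung. The difference of the group means was 1.49, against SDs of 0.09 and 0.23 (n = 3 each). Cybb minus Ncf1 was 1.08 ± 0.26 in WT and 2.61 ± 0.25 in TNF-Tg lungs. Beside Csf1r, the receptor gene of macrophage colony-stimulating factor, Cybb stood at -1.43 ± 0.28 in WT and 0.02 ± 0.26 in TNF-Tg lungs, and beside Ptprc, which marks all leukocytes, at -0.35 ± 0.15 and 2.33 ± 0.49. Csf1r itself rose (log2 fold change 2.66, adjusted p = 5.09e-06 from edgeR), and so did Ptprc (log2 fold change 1.43, adjusted p = 8.14e-05 from edgeR). Of the 9 pairs compared in this way, the 8 reported here had groups that did not overlap, each with p = 0.1 in an exact two-sided permutation test (adjusted p = 0.112 over the 9 pairs). The groups of the pair that is not reported here overlapped. The p of 0.1 is the smallest that 3 lungs against 3 can give, so no pair can pass a cutoff of 0.05.

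Rac2 minus Rac1, its relative that most cell types express, was -2.03 ± 0.45 in WT and -0.72 ± 0.10 in TNF-Tg lungs, while Rac1 by itself had 9203, 9234 and 8796 normalized counts in TNF-Tg lungs and 10207, 11048 and 9068 in WT lungs (log2 fold change -0.15, adjusted p = 0.283 from edgeR). Sod2 minus Sod1 was -2.45 ± 0.13 in WT and -0.76 ± 0.24 in TNF-Tg lungs. Slc11a1 minus Slc11a2 showed the largest shift of these pairs, from -1.78 ± 0.19 to 2.28 ± 0.35, reaching at most -1.61 in a WT lung and at least 1.87 in a TNF-Tg lung.

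**Figure D2:**
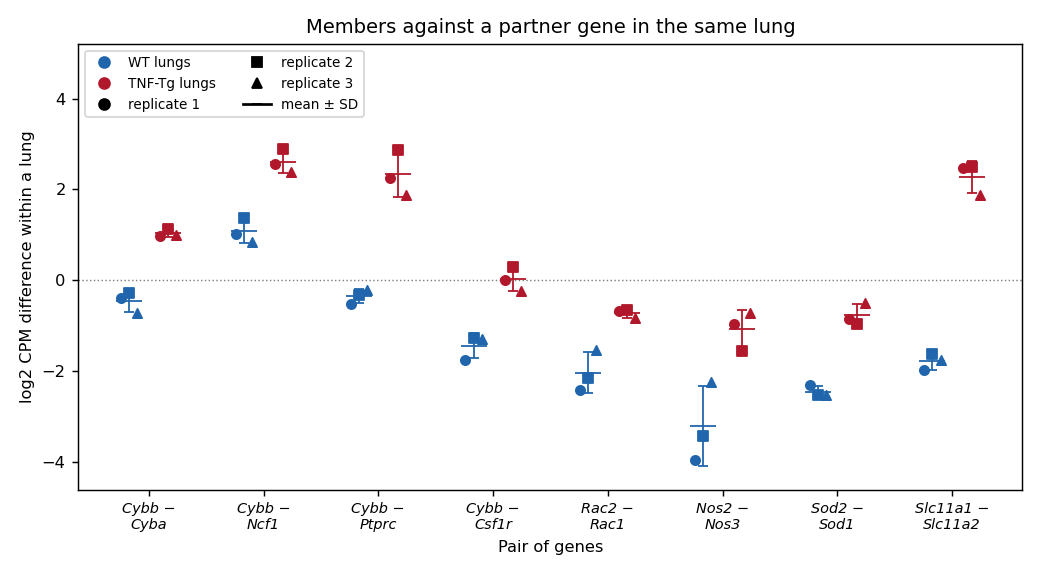
Difference of log2 CPM between a member and a partner gene in the same lung, for 8 pairs, with 3 WT lungs (blue) and 3 TNF-Tg lungs (red) and bars for the mean ± SD. The TNF-Tg lungs lie above the WT lungs in each of the 8 pairs, with the widest gap for Slc11a1 minus Slc11a2.

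Nos2, the inducible synthase, was the member with the lowest level per length in TNF-Tg lungs (ENSMUSG00000020826.8, chromosome 11, 78920787 to 78960254, plus strand). It had 521, 496 and 707 normalized counts in the 3 TNF-Tg lungs and 122, 132 and 246 in the 3 WT lungs, from 395 to 749 and from 128 to 277 raw counts. Replicate 3 was the highest lung of both genotypes, and the WT lungs spread by a coefficient of variation of 41.2%. The means were 575 ± 115 and 167 ± 68.8 (SD, n = 3 each; log2 fold change 1.78, standard error 0.28, 95% interval 1.13 to 2.43, adjusted p = 0.00138 from edgeR). The log2 fold change lay between 1.58 and 2.17 with each lung left out, and the call held in all 13 alternative settings. Nos2 minus Nos3, the endothelial synthase, was -3.20 ± 0.88 in WT and -1.07 ± 0.43 in TNF-Tg lungs on the log2 CPM scale, and Nos3 had 1209 ± 224 and 1507 ± 386 normalized counts (log2 fold change -0.32, adjusted p = 0.224 from edgeR).

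Acod1 went from near the detection limit to a clear signal (ENSMUSG00000022126.6, chromosome 14, 103046977 to 103056573, plus strand). Its raw counts were 9, 1 and 13 in the WT lungs, 23 reads in all, and 969, 1335 and 1160 in the TNF-Tg lungs. WT replicate 2 lay under the 3 counts taken as the detection floor, a limit that covers counting error only. In normalized counts the groups were 1251 ± 145 and 7.04 ± 5.47 (SD, n = 3 each; log2 fold change 7.43, standard error 0.41, 95% interval 6.48 to 8.38, adjusted p = 9.56e-06 from edgeR). The size of the fold change rests on these few WT reads, and with each lung left out the log2 value lay between 6.93 and 7.99. By fitted log2 fold change Acod1 ranked 15 among all tested genes, whereas Slc11a1 ranked 222 and Cybb 267.

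Sod2 encodes the manganese superoxide dismutase of mitochondria, a well-known NF-kB target (ENSMUSG00000006818.5, chromosome 17, 13006846 to 13040063, plus strand). It had 4670.3, 4694 and 4445 normalized counts in the 3 TNF-Tg lungs and 1579.6, 1515 and 1769 in the 3 WT lungs. The lungs of each genotype lay close together, with coefficients of variation of 2.98% in TNF-Tg and 8.14% in WT lungs, and the rise was 2.84-fold (log2 fold change 1.51, standard error 0.10, 95% interval 1.28 to 1.73, adjusted p = 1.75e-05 from edgeR). Of the windows of 100 bases in its transcripts, 12.8% also occur in transcripts of Rps6ka2 or AC166110.4, and none do for the other 8 members. Slc11a1 encodes a transporter that removes iron and manganese from the phagosome (ENSMUSG00000026177.11, chromosome 1, 74375195 to 74386062, plus strand), and the C57BL/6 strain carries an allele of it with impaired function, so its transcript level does not stand for its activity. Slc11a1 had 8155, 9419 and 6325 normalized counts in the 3 TNF-Tg lungs and 325, 381 and 399.9 in the 3 WT lungs, means of 7966 ± 1556 and 369 ± 39.1 (SD, n = 3 each; log2 fold change 4.43, standard error 0.18, 95% interval 4.02 to 4.85, adjusted p = 3.61e-06 from edgeR). Ordered by p-value it ranked 34 of all tested genes, the first of the members.

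Per kilobase of merged exons, the order of the members changed between the genotypes. In WT lungs Cyba was the highest, with 2515 ± 557 normalized counts per kilobase, followed by Rac2 at 809 ± 193 and Cybb at 326 ± 57.4 (SD, n = 3). Ncf1, Ncf4 and Sod2 came next at 243 ± 42.6, 191 ± 33.5 and 162 ± 13.2, and from Cybb to Sod2 each gene overlapped with its neighbour over the lungs. Slc11a1 at 99.5 ± 10.5, Nos2 at 37.8 ± 15.6 and Acod1 at 2.69 ± 2.09 closed the order. In TNF-Tg lungs Cyba stayed first at 15459 ± 3065, but Cybb was second at 5693 ± 1380.3 and Slc11a1 came next at 2150.1 ± 419.9, the latter overlapping with Rac2 at 1781 ± 164. Ncf1 and Ncf4 were at 1455 ± 119 and 1272 ± 43.7. Acod1 at 477 ± 55.1 overlapped with Sod2 at 459.9 ± 13.7, and Nos2 was the lowest at 130.3 ± 26.1. The merged exons of Sod2 span 10008 bases because some annotated transcripts are long, which lowers its level on this scale.

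Since the members rose together, the 250 bases before their annotated start sites were searched for 5 motifs, on both strands. RefSeq promoter sequences were matched for 6 members, Cybb, Cyba, Ncf1, Acod1, Sod2 and Slc11a1 (GRCm38.p6, the same chromosome sequences as mm10). The RefSeq start of Ncf1 is the end of the gene bounds given above, those of Cybb, Sod2, Acod1 and Slc11a1 lie inside the bounds and that of Cyba outside them. The 4 shown are those of the catalytic and the organizer subunit, of the gene with the largest rise, and of Sod2. They run 5′ to 3′ along the strand of the gene up to the base before its start, with every motif match in capitals.
Cybb, chrX:9469325-9469574, minus strand: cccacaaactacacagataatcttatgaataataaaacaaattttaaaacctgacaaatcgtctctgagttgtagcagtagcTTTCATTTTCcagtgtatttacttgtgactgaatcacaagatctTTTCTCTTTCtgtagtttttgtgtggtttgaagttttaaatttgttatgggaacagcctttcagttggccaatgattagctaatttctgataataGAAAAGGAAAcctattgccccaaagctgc
Ncf1, chr5:134229626-134229875, minus strand: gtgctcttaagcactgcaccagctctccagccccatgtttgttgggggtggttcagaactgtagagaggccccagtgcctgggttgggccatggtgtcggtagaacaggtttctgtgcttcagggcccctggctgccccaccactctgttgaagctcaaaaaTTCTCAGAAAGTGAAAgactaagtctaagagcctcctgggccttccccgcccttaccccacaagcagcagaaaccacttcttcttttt
Acod1, chr14:103046762-103047011, plus strand: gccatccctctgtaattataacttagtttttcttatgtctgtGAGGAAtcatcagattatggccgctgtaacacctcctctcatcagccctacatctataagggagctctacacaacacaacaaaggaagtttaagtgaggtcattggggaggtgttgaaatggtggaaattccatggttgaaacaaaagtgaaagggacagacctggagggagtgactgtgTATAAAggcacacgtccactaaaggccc
Sod2, chr17:13007589-13007838, plus strand: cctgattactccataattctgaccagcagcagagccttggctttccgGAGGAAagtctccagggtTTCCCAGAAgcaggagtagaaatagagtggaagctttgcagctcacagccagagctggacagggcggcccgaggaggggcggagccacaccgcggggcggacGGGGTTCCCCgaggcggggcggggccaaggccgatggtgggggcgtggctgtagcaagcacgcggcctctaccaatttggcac

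The interferon-stimulated response element, searched as GAAA, any 2 bases and GAAA again, occurred 3 times before Cybb, at bases 168 to 159, 124 to 115 and 29 to 20 before the start, the first 2 on the opposite strand. It occurred at bases 82 to 73 before Ncf1, where it overlaps a gamma-activated sequence, TTCNNNGAA, at bases 88 to 80. Of all 32851 promoters in the table, 2.98% held the first motif in the same window and 7.02% the other, which reads the same on both strands. Sod2 held a match to the NF-kB consensus at bases 83 to 74 (found in 3.9% of all promoters) and a gamma-activated sequence at bases 185 to 177. The core of the PU.1 site, GAGGAA, occurred before Acod1, Slc11a1 and Sod2 (in 23.3% of all promoters), and a TATA box, TATAAA, stood at bases 28 to 23 before Acod1 (in 12.4%). Of the 6 promoters, that of Cyba held none of the 5 motifs. These are matches of letters and not measured binding sites.

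Genes that act with the members were described as lists. Their counts stand beside 24.0% called higher and 23.4% called lower over all tested genes. Of the other subunits and activators of the oxidase, 11 of 14 tested genes were called higher and 2 lower, and the list's median log2 fold change was 1.13. The largest rise was that of Hvcn1, the proton channel that balances the charge the oxidase moves, from 772 ± 175 to 7704 ± 1999.6 (log2 fold change 3.32, adjusted p = 2.9e-05 from edgeR). Vav1, an exchange factor that loads Rac, rose too (log2 fold change 2.13, adjusted p = 1.16e-05 from edgeR), and Cybc1, a chaperone of the membrane chains, rose by 0.75 on the log2 scale (adjusted p = 0.00099 by edgeR). S100a8 (log2 fold change -1.04, adjusted p = 0.0203 from edgeR) and S100a9 (log2 fold change -1.77, adjusted p = 0.00569 from edgeR), abundant calcium-binding proteins of neutrophils, were lower in TNF-Tg lungs, and the call of S100a8 was lost without TNF-Tg replicate 2, TNF-Tg replicate 3 or WT replicate 3 (largest adjusted p = 0.0728 by edgeR).

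The other NADPH oxidases and their partners went in both directions. Of 5 tested genes on that list, 1 was called higher and 2 lower. The number called changed with the test and with the filter on low counts, as given at the end. Noxo1, an organizer that partners Nox1, rose from 231 ± 73.7 to 651 ± 113 (log2 fold change 1.49, adjusted p = 0.00126 from edgeR). Duox2 (log2 fold change -2.55, adjusted p = 0.00396 from edgeR) and Nox1 (log2 fold change -2.02, adjusted p = 0.015 from edgeR) fell at low counts, and Nox1 lost its call without TNF-Tg replicate 2 or WT replicate 1 (largest adjusted p = 0.055 by edgeR). Nox4, the oxidase of vessel wall and fibroblasts, had 1109 ± 169 and 1186 ± 209.7 normalized counts (log2 fold change -0.10, adjusted p = 0.645 from edgeR).

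On the list of nitric oxide synthesis, arginine and tetrahydrobiopterin genes, 6 of 17 tested genes were called higher and 4 lower (median log2 fold change -0.03). The 4 became 2 without TNF-Tg replicate 3, as Nos1 and Slc7a2 lost their calls, and 5 without WT replicate 3, and the 6 became 4 without both libraries that stood apart. Ass1, which with Asl rebuilds arginine from citrulline, rose from 1064 ± 86.4 to 2966 ± 501 (log2 fold change 1.48, adjusted p = 8.99e-05 from edgeR). Gch1, which makes the first step to the cofactor of nitric oxide synthases, rose by 0.79 on the log2 scale (adjusted p = 0.0015 by edgeR), while its feedback regulator Gchfr fell (log2 fold change -1.71, adjusted p = 0.000979 from edgeR). Nos1, the neuronal synthase, was called lower (log2 fold change -4.69, adjusted p = 0.0308 from edgeR), but its counts rested on WT replicate 1, with 432, 17.3 and 14.2 normalized counts in the WT lungs, and without that lung its log2 fold change was -1.43 (adjusted p = 0.104 by edgeR). Its call was also lost without any 1 of the TNF-Tg lungs, and it was called lower without both libraries that stood apart (log2 fold change -2.01, adjusted p = 0.0463 by edgeR). Of the 5 tested genes for the nitric oxide receptor and cyclic GMP signalling, 2 were called, both lower, the kinase gene Prkg1 (log2 fold change -1.39, adjusted p = 0.00504 from edgeR) and the phosphodiesterase gene Pde5a (log2 fold change -0.79, adjusted p = 0.023 from edgeR). Pde5a lost its call without replicate 1 or 2 of either genotype (largest adjusted p = 0.0677 by edgeR). The number of genes called lower on that list was 4 without TNF-Tg replicate 3 or WT replicate 3, and 1 without any other lung.

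Among genes that remove superoxide and hydrogen peroxide, 8 of 14 tested genes were called higher and 1 lower (median log2 fold change 0.28). Of the 8, Prdx2 and Prdx3 lost their calls without any 1 of the 6 lungs, and Gpx4 without replicate 1 or 2 of either genotype, which left 5 or 6 called higher. Prdx1, a cytosolic peroxiredoxin, rose from 5141 ± 351 to 18689.6 ± 1242 (log2 fold change 1.86, adjusted p = 1.48e-05 from edgeR), and Txnrd1, which recharges thioredoxin, rose by 1.31 on the log2 scale (adjusted p = 4.51e-05 by edgeR). Prdx6, abundant in lung epithelium, fell from 27119 ± 1381 to 14756 ± 1496 (log2 fold change -0.88, adjusted p = 0.00084 from edgeR). The other superoxide dismutases did not pass the test, with log2 fold changes of -0.17 for the cytosolic Sod1 and 0.09 for the extracellular Sod3 (adjusted p = 0.44 and 0.603 by edgeR). On the citrate and itaconate list, 2 of 11 tested genes were called higher and 1 lower, and 8 did not pass. Idh1 (log2 fold change 0.82, adjusted p = 0.000283 from edgeR) and Sdhb (log2 fold change 0.58, adjusted p = 0.00342 from edgeR) rose, and the mitochondrial Idh2 fell (log2 fold change -0.36, adjusted p = 0.0202 from edgeR). Idh2 lost its call without TNF-Tg replicate 2 or 3 (largest adjusted p = 0.0597 by edgeR), and Sdhb without both libraries that stood apart (adjusted p = 0.0632 by edgeR).

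Of genes for divalent metal transport and iron storage, 9 of 11 tested genes were called higher and 1 lower (median log2 fold change 1.39). The 9 became 6 without TNF-Tg replicate 2 and 5 without both libraries that stood apart. Hmox1, which opens the heme ring and frees its iron, rose from 753 ± 30.5 to 14655 ± 2854 (log2 fold change 4.28, adjusted p = 3.19e-06 from edgeR), close to Slc11a1 and Cybb in log2 fold change. Slc40a1, the iron exporter, rose from 205 ± 31.0 to 1452 ± 86.1 (log2 fold change 2.83, adjusted p = 5.76e-06 from edgeR), and Steap3, a ferrireductase, fell (log2 fold change -0.78, adjusted p = 0.000621 from edgeR). Slc11a2, the relative of Slc11a1 that most cells express, rose by 0.35 on the log2 scale (adjusted p = 0.0205 by edgeR), a call it lost without TNF-Tg replicate 2 or 3 or WT replicate 1 or 2 (largest adjusted p = 0.0826 by edgeR). Of the transcription factors known from other work to act at promoters of the members, 10 of 14 tested genes were called, all of them higher (median log2 fold change 0.60). Spi1, which encodes PU.1, rose from 731 ± 43.9 to 3658 ± 86.6 (log2 fold change 2.32, adjusted p = 3.19e-06 from edgeR), followed by Irf5 (log2 fold change 1.86, adjusted p = 1.18e-05 from edgeR). Irf1 had 2998 ± 465 and 2841 ± 84.2 normalized counts (log2 fold change 0.08, adjusted p = 0.632 from edgeR).

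**Figure D3:**
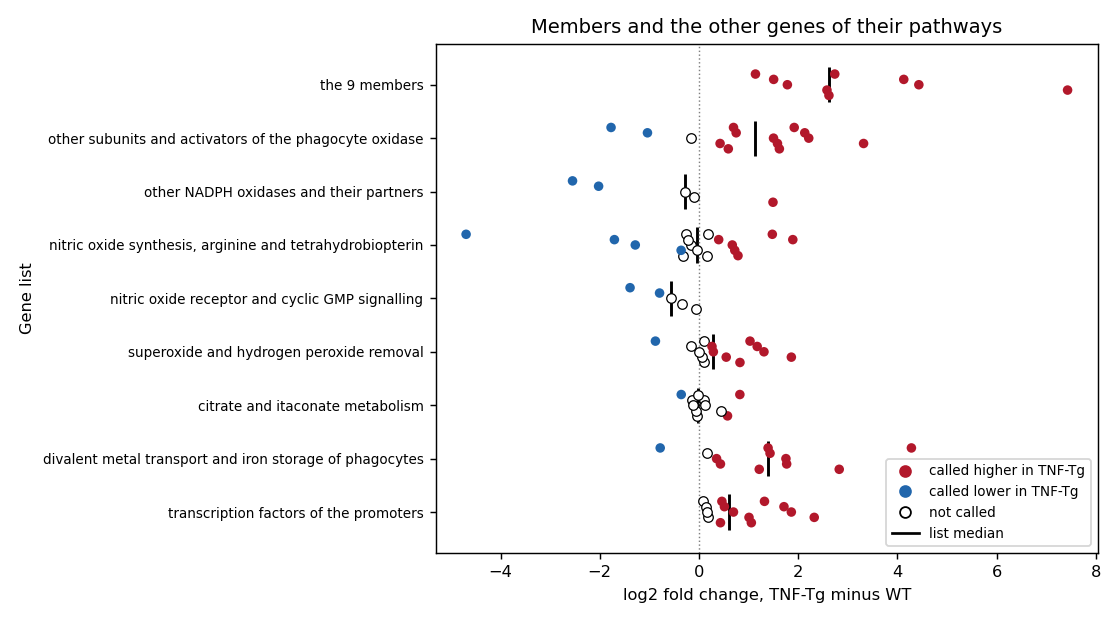
Log2 fold change (TNF-Tg minus WT) of the 9 members and of the tested genes on 8 lists of related genes, red where called higher, blue where called lower and open where not called, with a bar at each list's median. All 9 members lie to the right of 0, with a median of 2.62, while the lists have medians from -0.55 to 1.39.

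Markers of the cell types that a whole lung holds moved with the genotype too. All 6 markers of leukocytes in general were called higher, with a summed level of 76404 to 88535 in TNF-Tg lungs and 25882 to 32492 in WT lungs. The 10 macrophage markers had a median log2 fold change of 2.65, beside 2.62 for the members, from 0.49 for Mertk to 4.93 for Trem2, and most of their summed level was Lyz2, with 189362 to 219730 normalized counts in TNF-Tg and 76933 to 78754 in WT lungs. Mertk lost its call without any 1 of 5 of the 6 lungs and Fcgr1 without any 1 of 4, so that 8 or 9 of the 10 were called with a lung left out. Of 8 markers of alveolar macrophages, 3 were called higher and 3 lower. Marco, Chil3 and Itgax were called higher (log2 fold changes 7.10, 1.23 and 2.28), and Siglecf, Krt79 and Car4 lower (-1.27, -1.09 and -1.72). The sum of the 8 was 74504 to 121051 in TNF-Tg lungs and 12949 to 16092 in WT lungs. It held mostly Marco in the TNF-Tg lungs, with 58276, 95434 and 49542 normalized counts. Of 6 monocyte markers 5 were called higher (sum of 14931 to 20372 in TNF-Tg lungs and 5453 to 6147 in WT lungs). Neutrophil markers went the other way, with 9 of 12 called lower and 1 higher, and a summed level of 2384 to 3965 in TNF-Tg lungs and 6580.3 to 11345 in WT lungs. The granule genes Mpo and Elane, which mark immature neutrophils, stood at most at 3.78 and 1.32 normalized counts in TNF-Tg lungs. T cell markers were called higher for 5 of 6 (sum of 10363 to 14932 in TNF-Tg lungs and 1293 to 2372 in WT lungs, mostly Cd4 in TNF-Tg lungs) and B cell markers for 3 of 5 (sum of 6895 to 7503 in TNF-Tg lungs and 3224 to 5806 in WT lungs). Without both libraries that stood apart these counts were 3 and 1. The neutrophil marker called higher, Csf3r, lost its call without TNF-Tg replicate 1 or 3 or WT replicate 1 or 2.

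Markers of the lung's own structure were lower. Of the epithelial markers 6 of 8 were called lower (sum of 583931 to 758574 in TNF-Tg lungs and 1125292 to 1320439 in WT lungs), of the endothelial markers 6 of 6 (sum of 39696 to 45121 in TNF-Tg lungs and 102195 to 126924 in WT lungs) and of the fibroblast markers 4 of 5 (sum of 24945 to 26219 in TNF-Tg lungs and 35188 to 55255 in WT lungs). The fibroblast count fell to 2 without TNF-Tg replicate 1, 2 or 3 or WT replicate 1, as Col1a2 and Pdgfra lost their calls. Squamous markers were nearly confined to WT replicate 1, where they summed to 103915 normalized counts against at most 82.6 in the other lungs, and Krt5 was the 1 of 2 tested that was called lower, a call lost without any of the TNF-Tg lungs (largest adjusted p = 0.0735 by edgeR). The summed level of the 9 members was 62509.9 to 90078 in TNF-Tg lungs and 8571 to 12130.2 in WT lungs, a ratio of means of 7.36. The same ratio was 7.64 for the T cell, 6.42 for the alveolar macrophage, 3.34 for the macrophage, 2.92 for the monocyte, 2.87 for the leukocyte and 1.67 for the B cell markers. The median log2 fold changes of these lists were 1.00, 0.44, 2.65, 1.49, 1.75 and 0.74 in the same order, beside 2.62 for the members. A sum follows its most abundant genes. For the members in TNF-Tg lungs these were Cybb and Cyba, with means of 33065 and 16062 normalized counts, most of the sum.

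**Figure D4:**
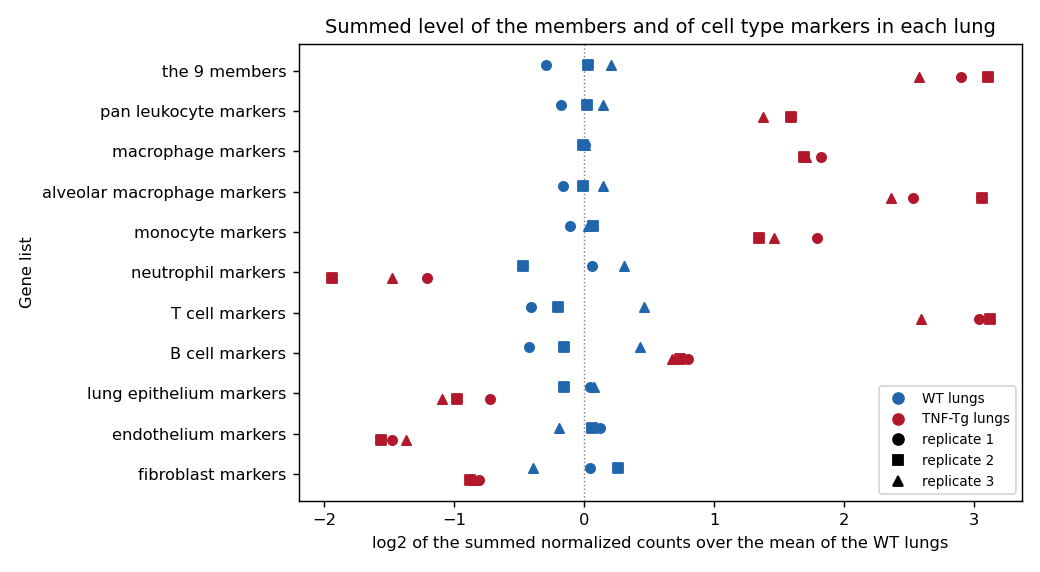
Summed normalized counts of the 9 members and of each list of cell type markers except the squamous one in each lung, as log2 of the ratio to the mean of the 3 WT lungs (blue WT, red TNF-Tg). In TNF-Tg lungs the members lie at 2.58 to 3.11, where T cell markers (2.59 to 3.12) and alveolar macrophage markers (2.36 to 3.06) overlap them. Macrophage markers lie at 1.69 to 1.82 and neutrophil markers at -1.94 to -1.21. In those lungs the T cell sum is mostly Cd4 and the alveolar macrophage sum mostly Marco. The median log2 fold changes of the T cell and alveolar macrophage lists are 1.00 and 0.44, beside 2.62 for the members.

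The genes with the pattern most like that of Cybb were found by the Euclidean distance between log2 CPM profiles over the 6 lungs, each centred on its own mean. They were 2900052N01Rik (distance 0.41), Orm2 (0.49), Mcoln2 (0.52), Ccl9 (0.54) and Adm2 (0.57), leaving out the members. Their fitted log2 fold changes were 8.19, 4.64, 4.07, 3.95 and 5.59 in the same order, beside 4.13 for Cybb. Among the members, Slc11a1 lay nearest to Cybb (0.44), and Ncf1 and Ncf4 were the closest pair of all (0.24). The nearest gene outside the members was Guca1a for Cyba (0.25), Fcer1g for Ncf1 (0.11), Mcemp1 for Ncf4 (0.11) and Fcho1 for Rac2 (0.14). For Nos2 it was Mir142hg (0.27), for Acod1 H2-M2 (0.99), for Sod2 Bid (0.11) and for Slc11a1 Bpifa6 (0.36). Bpifa6 had a fitted log2 fold change of 8.48, beside 4.43 for Slc11a1. The prior count of 2 draws the log2 CPM of low genes towards each other, so a gene with few counts can come close to a member with a smaller fold change.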

How the data were processed

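Lung RNA of 3 TNF-Tg and 3 WT mice was sequenced in bulk, 1 library per mouse. The authors cleaned single-end reads of stranded poly(A) libraries with Trimmomatic (0.36 in the submitters' processing notes), mapped them with STAR (2.5.2b) to GRCm38.p5 (mm10) and counted them with featureCounts, and they deposited raw counts per gene symbol without normalization. The strand setting and annotation are not given in the sources used here. All 6 columns were used, matched to mice by genotype and number.

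Counts were tested with edgeR (4.0.16, R 4.3.3) using quasi-likelihood F-tests on a model of genotype alone. Low genes were removed by filterByExpr, TMM factors were applied, and p-values were adjusted across tested genes by Benjamini-Hochberg. The study's own tool, DESeq2 (1.42.0), was an alternative. A standard error is the size of the log2 fold change divided by the square root of F. Log2 CPM used a prior count of 2. Symbols were placed on mm10 with GENCODE M21, in which all 179 listed genes were found. Promoters came from RefSeq. Scripts were tested on simulated counts.

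The members and all gene lists were chosen with earlier results of these data known. All members are named. Of each pathway list, the 2 largest rises and the 2 largest falls among called genes are named, with the genes of the planned pairs and examples of the cell markers, except that 1 of these genes on the oxidase list, 1 on the nitric oxide list and 1 planned pair are not reported here. Other genes (Vav1, Cybc1, Nox4, Gch1, Slc7a2, Sod3, Prdx2, Prdx3, Gpx4, Irf1 and Tnf) were named after their values were seen. Alternatives were other normalizations, filters, the replicate number as a block and each lung left out. Leaving out both libraries that stand apart was added after seeing the data. The total counts put the floor of 3 counts at 0.0922 to 0.118 CPM.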

Additional observations from a re-analysis of the deposited data

How the results depend on the processing

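All 9 members were called higher in every alternative in which they were tested, with DESeq2, other size factors, total counts, no filter, the replicate block, each lung left out, and both libraries that stand apart left out. With at least 10 counts required in every lung, Acod1 was not tested and the other 8 were called higher. Over all genes, between 7347 and 9164 were called with each lung left out, 9159 with DESeq2, and 6064 without both libraries, against 9096 as reported. With the replicate number as a block 7686 genes were called, and the log2 fold change of Cybb was 4.12. The numbers were not taken to pair the mice. Correlations of same-numbered lungs' deviations were -0.15, 0.00 and -0.24, and those of differently numbered lungs ran from -0.06 to 0.21. With 3 lungs per group these values show no pairing but cannot exclude it. Of the list counts, that of other NADPH oxidases was 5 with DESeq2, 6 with no filter on low counts and 1 with at least 10 counts in every lung, against 3. That of the nitric oxide receptor and cyclic GMP list was 1 to 4 with each lung left out (4 without TNF-Tg replicate 3 or WT replicate 3, 1 without any of the others) and 1 without both libraries, against 2. That of metal transport and iron storage was 6 without both libraries, against 10. The cause was not tested. Depth limits the values of Acod1 in WT lungs and of Mpo and Elane in TNF-Tg lungs, which rest on few reads.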
